A study of Homo sapiens with 4 samples.

Results

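The nucleolar ribosome biogenesis genes are 56 protein-coding genes, taken by gene symbol from a given list of factors that make, modify or assemble ribosomal RNA in the nucleolus. All 56 were found among the 48162 genes of the authors' table, and no symbol occurred more than once. Their expression was measured by RNA sequencing of poly(A) RNA from the established line MDA-MB-231, human triple-negative breast cancer cells grown in DMEM with fetal bovine serum. The 4 libraries were 2 from cells treated with MGH-CP1 at 10 µM for 24 h and 2 from cells treated with vehicle. MGH-CP1 is, by the series title, a compound that blocks the palmitoylation of TEAD, the DNA-binding partner of the Hippo pathway effectors YAP and TAZ. The labels name a single dose, time and cell line, and separate cultures are not stated for the replicates. The p-values therefore reflect library-to-library spread alone, which may be technical.

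A ribosome is built in the nucleolus, where RNA polymerase I copies the ribosomal DNA into a long precursor. Small nucleolar ribonucleoproteins (snoRNPs) modify that precursor, the small-subunit processome folds and cuts its 18S part, and a separate set of factors shapes the large 60S subunit before both subunits are exported. Growing and dividing tumor cells keep these genes high, and MYC is a known activator of many of them.

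Recovered from the deposited values, the reads on listed genes numbered 16790645 to 18485701 per library. The 2 MGH-CP1 libraries correlated with each other at a Pearson r of 0.995, the 2 vehicle libraries at 0.992, and the closest pair between groups at 0.964, all across 11790 genes, which are not independent replicates. Of the markers of this line, the keratin gene KRT8 had 299 and 290.4 FPKM in the MGH-CP1 libraries, against 289 and 288 FPKM in the vehicle libraries. KRT7 was also not called, KRT18 (-0.30) and EGFR (-0.37) were called lower, and VIM (0.30) and CD44 (0.29) were called higher, in log2 fold change. The hormone receptor genes ESR1 and PGR had 1 and 0 reads over the 4 libraries, and the receptor gene ERBB2 had 24.5 to 26.3 FPKM. Of the defining genes of other cell types reported here, PTPRC and CDH5 stayed at or under 0.0895 FPKM, and CD14 was highest at 2.84 to 3.24 FPKM. Of the fibroblast genes, COL1A1 had 1.85 to 2.79 FPKM and PDGFRB 0.984 to 1.59 FPKM, while COL3A1 and DCN stayed at or under 0.361 FPKM. Levels are in FPKM, which divides fragments by gene length and by library size, so they can be compared between genes. A difference is a log2 fold change of MGH-CP1 over vehicle on the log2(FPKM + 1) scale, given ± SE, with limma p-values adjusted (Benjamini-Hochberg) for the 11790 genes whose mean reached 1 FPKM. The threshold for a call was an adjusted p of 0.05.

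Ribosome biogenesis genes were lower with MGH-CP1, with some or all members of each role class called. Of the 56 genes, all of which passed the filter on low values, 49 fell (87.5%), and 7 did not pass the test. None was called higher by limma, none had an unadjusted p under 0.05 in that direction, and voom on the recovered reads called none higher and 50 lower. Over all genes tested, 25.1% were called lower and 20% higher. The median log2 fold change of the 56 genes was -0.67, against -0.02 over all genes tested. The genes that fell stood at 33.8% to 79.6% of their vehicle means, and 5 of the 56 were called at a log2 fold change of -1 or less, a fall of 2-fold or more on that scale (8.93%, against 2.34% of all genes tested). That scale shrinks the changes of low genes: the count was 8 with a pseudocount of 0.1 and with voom, and 8 genes stood under 50% of their vehicle means in FPKM. The levels in both MGH-CP1 libraries lay below both vehicle levels for 53 genes, against 39.4% of all genes tested, and the groups overlapped for IMP3, UTP3 and NOB1.

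**Figure D1:**
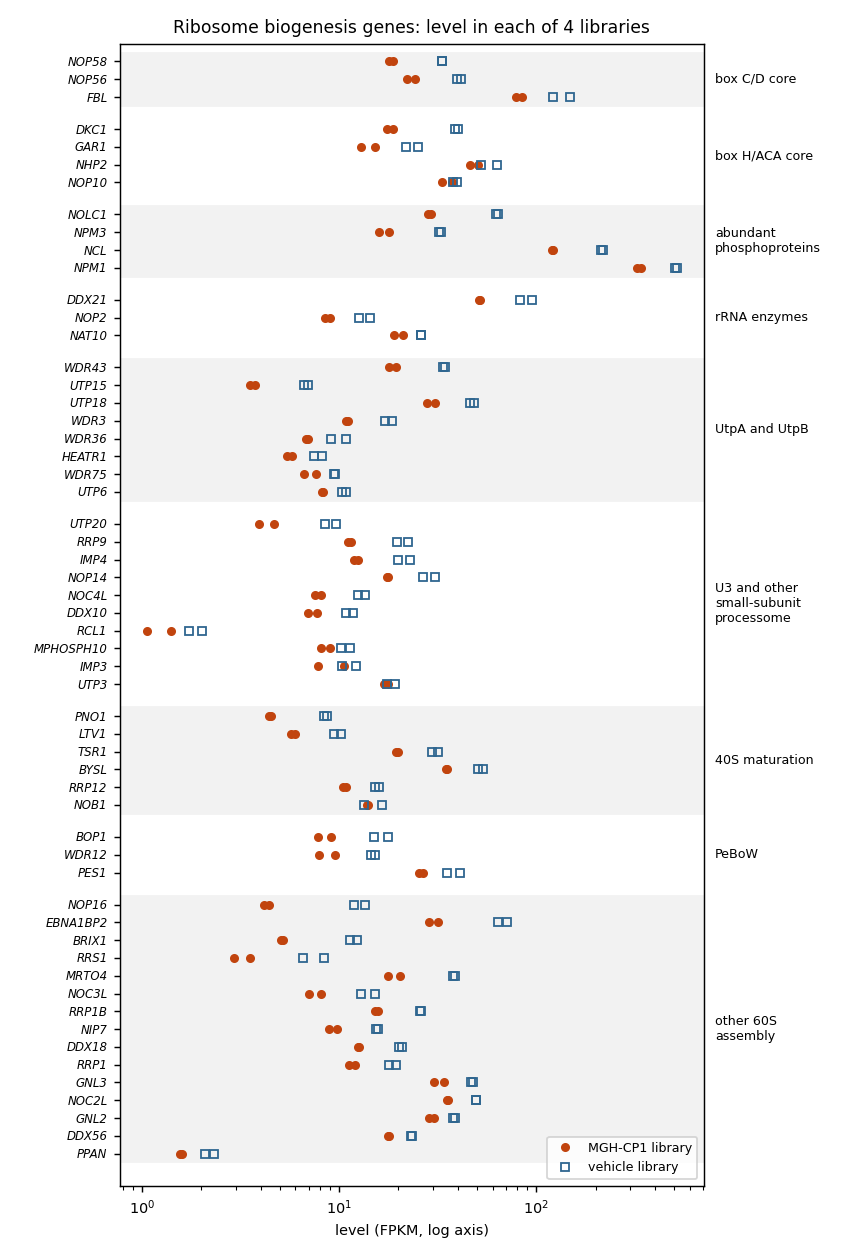
Level of each of the 56 genes in FPKM on a log axis, with filled circles for the 2 MGH-CP1 libraries and open squares for the 2 vehicle libraries, grouped by role. The MGH-CP1 circles lie left of the vehicle squares for 53 genes, and overlap them for IMP3, UTP3 and NOB1.

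Together the 56 genes took 0.361% and 0.353% of all reads in the MGH-CP1 libraries, against 0.587% and 0.580% in the vehicle libraries. The groups did not overlap, and an exact permutation test of 2 against 2 libraries cannot give a two-sided p under 0.333. NPM1 and NCL, the most abundant of the 56, made up 29.97% and 29.9% of these reads in the MGH-CP1 libraries, against 30.1% and 30.5% in the vehicle libraries. Without them the other genes took 0.253% and 0.248% of all reads with MGH-CP1, against 0.410% and 0.403% with vehicle. The shares are relative to the total RNA sequenced, so fewer cells that express these genes and less of their RNA per cell cannot be told apart. Mitochondrially encoded transcripts took 1.81% and 1.54% of reads in the MGH-CP1 libraries, against 0.676% and 0.645% in the vehicle libraries. When libraries were rescaled to a common median ratio, which moved the median of all genes by less than 0.01 on the log2 scale, the count of ribosome biogenesis genes called lower was again 49.

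The size of the change showed only a weak relation to how abundant or long a gene was. Over the 56 genes the Spearman correlation of the log2 fold change was -0.09 with the mean level of the 4 libraries. It was -0.17 with the vehicle mean and 0.09 with gene length. These values are a description, since all genes share the same 4 libraries. Between replicates the 56 genes had a median coefficient of variation of 4.36% in the MGH-CP1 libraries and 5.52% in the vehicle libraries. The widest were IMP3 with MGH-CP1 (21.3%) and RRS1 with vehicle (17.8%). Over all genes with enough reads, replicates differed by more than read sampling gives. The median chi-square was 1.046 with MGH-CP1 and 1.781 with vehicle, against 0.455 under sampling alone.

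**Figure D2:**
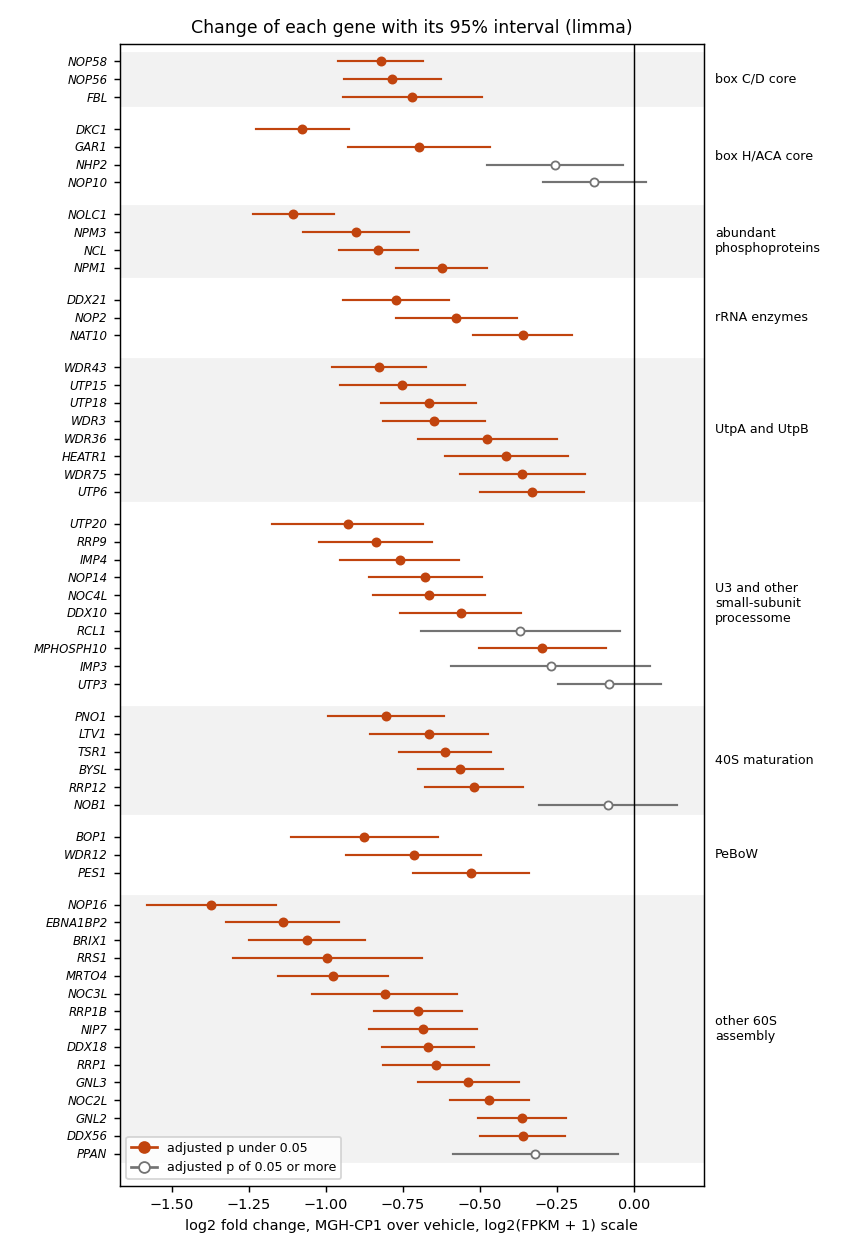
Log2 fold change of MGH-CP1 over vehicle for each gene, with its 95% interval from limma, grouped by role. Filled symbols mark the 49 genes called lower, open grey symbols the 7 that did not pass, and every point lies left of 0.

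The promoters of these genes often carried CACGTG, the canonical E-box bound by MYC and related factors, close to the start of transcription. RefSeq promoters on GRCh38.p14, from 250 bases before to 50 bases after each gene start, were at hand for 48 of the 56 genes (no entry was used for RRP12, BOP1, MPHOSPH10, NOLC1, NOP58, RRS1, RRP1B and DDX18). A gene was counted when the window of any start listed for it held the letters, so shares are of genes. CACGTG, which reads the same on both strands, was present in 22 of the 48 (45.8%), and within 50 bases of a start in the same number. It was present in 12.8% of tested protein-coding genes and 8.77% of all genes in the promoter table, and within 50 bases of a start in 5.36% and 3.51% of them. Among 83 other ribosome biogenesis genes, it was present in 28.9% and within 50 bases of a start in 20.5%. These 30-base stretches from the 8 genes with the largest falls, among those with an E-box that lies within 50 bases of the start and has 12 bases of the window on each side, show where it sits. The E-box is in capitals, and each is written along the gene's strand.
MRTO4 (chr1:19251807-19251836, plus strand): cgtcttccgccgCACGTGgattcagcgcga
UTP20 (chr12:101280083-101280112, plus strand): cttttttccgtcCACGTGacccactcaggc
RRP9 (chr3:51941892-51941921, minus strand): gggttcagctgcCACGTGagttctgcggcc
WDR43 (chr2:28894658-28894687, plus strand): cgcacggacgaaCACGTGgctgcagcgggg
NOC3L (chr10:94362903-94362932, minus strand): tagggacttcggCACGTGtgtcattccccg
PNO1 (chr2:68157885-68157914, plus strand): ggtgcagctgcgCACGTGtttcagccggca
DDX21 (chr10:68956604-68956633, plus strand): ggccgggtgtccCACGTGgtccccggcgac
IMP4 (chr2:130342900-130342929, plus strand): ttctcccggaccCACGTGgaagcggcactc

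With the first transcribed base counted as 0, the E-box began at -10 in UTP20, at -5 in RRP9 and, from the second start listed for it, at -31 in DDX21. It began at 3 in WDR43, 9 in PNO1, 14 in MRTO4, 15 in IMP4 and 19 in NOC3L. Of 26 E-boxes in the promoters of the 48 genes searched, 22 lay within 50 bases of a start and 17 at or after it. The 22 genes with an E-box had a median log2 fold change of -0.69, with 20 called lower, and the 26 without had a median of -0.62, with 21 called lower, so most genes of either class fell. Other motifs, each searched on both strands and chosen with these data known, were counted in the same way. The ETS motif CCGGAAG was in 39.6% of the 48 genes, against 23.7% of tested protein-coding genes and 12.2% of all genes in the table. It was in 42.2% of the other ribosome biogenesis genes. The TEAD core CATTCC was in 18.8%, against 14.96% of tested protein-coding genes and 16.7% of all genes. It was in 7.23% of the other ribosome biogenesis genes. Within 50 bases of a start it was in 4.17% of the 48 genes, against 4.36% of tested protein-coding genes. TATAAA was in 4.17% of the 48 genes, against 7.56% of tested protein-coding genes and 13.99% of all genes. CCAAT was in 47.9%, against 43.5% and 39.7%, and the GC box GGGCGG in 79.2%, against 79.1% and 48.3%. The mean GC content, from the first window listed for each gene, was 63.1% in the 48 genes. It was 65.2% in tested protein-coding genes and 57.2% in all genes in the table. No motif in this search holds another, though matches may overlap on the genome. A match is a stretch of letters and does not show that a factor was bound. MYC itself had 42.4 and 40.5 FPKM in the MGH-CP1 libraries, against 58.3 and 54.4 FPKM in the vehicle libraries. Its log2 fold change was -0.43 ± 0.06 (limma, adjusted p = 0.00137), and its part in the change of the ribosome biogenesis genes was not tested.

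**Figure D3:**
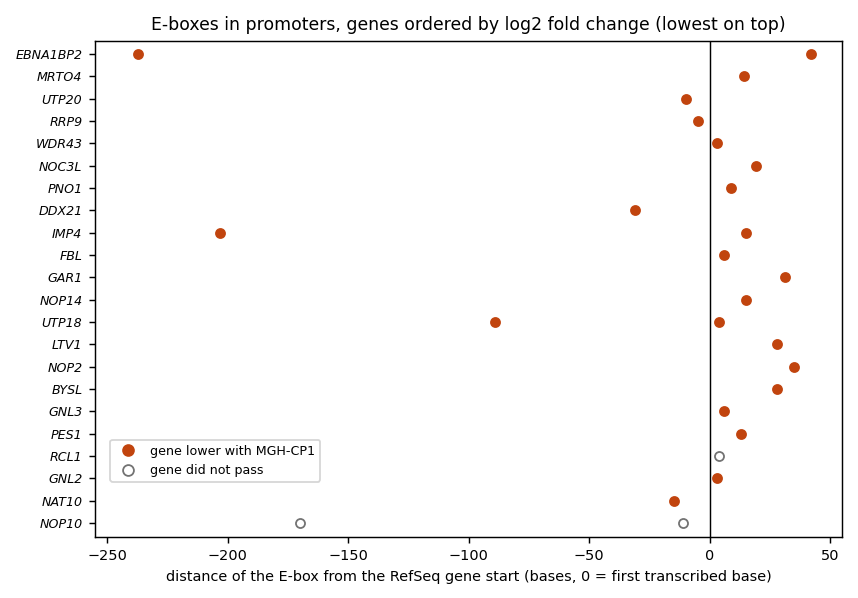
Position of each CACGTG E-box relative to the RefSeq gene start, in bases, for the 22 ribosome biogenesis genes that carry it, ordered from the largest fall at the top to the smallest at the bottom. Filled symbols are genes called lower, open symbols genes that did not pass, and 22 of the 26 E-boxes lie within 50 bases of the start.

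The 3 listed core genes of the box C/D snoRNPs, which place methyl groups on ribose in ribosomal RNA, fell by similar amounts. FBL, the methyltransferase fibrillarin (ENSG00000105202, hg19 chromosome 19, 40325098 to 40337054, minus strand), had 84.2 and 78.5 FPKM in the MGH-CP1 libraries, against 149 and 122 FPKM in the vehicle libraries (log2 fold change -0.72 ± 0.10; limma, adjusted p = 0.00102). NOP56, a scaffold of the same particle, had 24.2 and 22.1 FPKM with MGH-CP1, against 41.6 and 39.6 FPKM with vehicle (-0.78 ± 0.07). NOP58, the related scaffold, had 18 and 18.8 FPKM with MGH-CP1, against 33.2 and 33.3 FPKM with vehicle (-0.82 ± 0.06). No MGH-CP1 value reached a vehicle value for these genes, and FBL was the one whose vehicle libraries differed most. Their proportions held: the level of FBL over that of NOP56 was 3.48 and 3.55 in the MGH-CP1 libraries, against 3.57 and 3.08 in the vehicle libraries, and that of NOP58 over NOP56 was 0.743 and 0.848 with MGH-CP1, against 0.798 and 0.842 with vehicle. Both ratios overlapped between groups. A further core protein of these particles is encoded by NHP2L1, which was in the list of other ribosome biogenesis genes. NHP2L1 fell less than these 3 genes, to 75.9% of its vehicle mean (log2 fold change -0.39 ± 0.07; limma, adjusted p = 0.00292).

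The box H/ACA snoRNPs, which convert uridine to pseudouridine, changed unevenly. DKC1, the pseudouridine synthase dyskerin (ENSG00000130826, hg19 chromosome X, 153991031 to 154005964, plus strand), had 18.8 and 17.5 FPKM in the MGH-CP1 libraries, against 38.6 and 40.1 FPKM in the vehicle libraries. It fell to 46.1% of its vehicle mean (log2 fold change -1.08 ± 0.06; limma, adjusted p = 4.19e-05). GAR1, which binds dyskerin and aids catalysis, had 15.2 and 12.9 FPKM with MGH-CP1, against 25 and 21.8 FPKM with vehicle (-0.70 ± 0.10; limma, adjusted p = 0.00125). The smaller partners NHP2 and NOP10, which complete the particle, did not pass the test. NHP2 had 50.4 and 46.1 FPKM with MGH-CP1, against 63.5 and 52.6 FPKM with vehicle (log2 fold change -0.26 with a 95% interval of -0.48 to -0.03; limma, adjusted p = 0.0607). NHP2 was called lower without vehicle replicate 2 (limma, adjusted p = 0.00102), with voom (adjusted p = 0.0477), with a filter at 5 FPKM (0.0417) and with the replicate block (0.0167), within a range of 0.00102 to 0.264 over the alternatives. NOP10 had 37.3 and 33.4 FPKM with MGH-CP1, against 37.6 and 39.8 FPKM with vehicle (-0.13, interval -0.30 to 0.04; limma, adjusted p = 0.176). The level of NOP10 over that of DKC1 was 1.98 and 1.91 in the MGH-CP1 libraries, against 0.974 and 0.991 in the vehicle libraries. For NHP2 over DKC1 the ratio was 2.68 and 2.64 with MGH-CP1, against 1.65 and 1.31 with vehicle. For GAR1 over DKC1 it was 0.806 and 0.739 with MGH-CP1, against 0.648 and 0.542 with vehicle. None of these ratios overlapped between groups, and the smallest two-sided p of an exact permutation test of 2 against 2 libraries is 0.333.

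**Figure D4:**
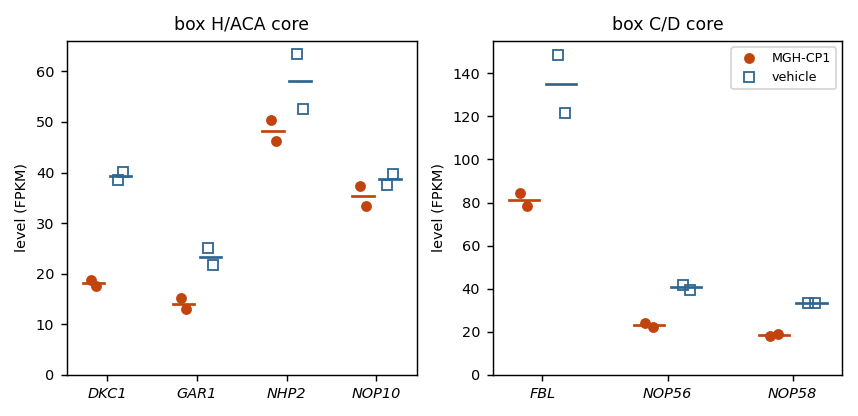
Level in FPKM of the listed core snoRNP genes, with filled circles for the 2 MGH-CP1 libraries, open squares for the 2 vehicle libraries and lines for group means. DKC1 and GAR1 stand well below vehicle while NHP2 and NOP10 lie close to it, and FBL, NOP56 and NOP58 all stand below vehicle.

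The abundant nucleolar phosphoproteins fell together, 4 of 4. NPM1, the histone chaperone nucleophosmin that fills the granular part of the nucleolus (ENSG00000181163, hg19 chromosome 5, 170814120 to 170838141, plus strand), had 340.2 and 323 FPKM in the MGH-CP1 libraries, against 517 and 505 FPKM in the vehicle libraries (log2 fold change -0.62 ± 0.06; limma, adjusted p = 0.000301). It was the most highly expressed of the 56 genes in both groups, and 45 of its pseudogenes are listed, which can share its reads. The largest of these, NPM1P27, had 13.2 and 12.01 FPKM with MGH-CP1, against 25.7 and 16.6 FPKM with vehicle. NCL, nucleolin, an RNA-binding protein of the precursor, had 120.3 and 121 FPKM with MGH-CP1, against 213 and 218 FPKM with vehicle (-0.83 ± 0.05). NOLC1, a chaperone of snoRNPs (ENSG00000166197, hg19 chromosome 10, 103911933 to 103923627, plus strand), had 29.3 and 28.3 FPKM with MGH-CP1, against 63.6 and 62.6 FPKM with vehicle, and had the smallest adjusted p of the 56 genes (-1.11 ± 0.06; limma, adjusted p = 2.48e-05). NPM3, a nucleoplasmin related to NPM1, had 18 and 15.9 FPKM with MGH-CP1, against 32.9 and 32.2 FPKM with vehicle (-0.90 ± 0.07). The level of NPM1 over that of NPM3 was 18.9 and 20.3 with MGH-CP1, against 15.7 and 15.7 with vehicle.

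The genes listed here as enzymes that act on the precursor fell, 3 of 3. DDX21, an RNA helicase that also binds transcribed ribosomal DNA, had 51.3 and 51.7 FPKM in the MGH-CP1 libraries, against 82.9 and 94.9 FPKM in the vehicle libraries (log2 fold change -0.77 ± 0.07; limma, adjusted p = 0.000224). NOP2, a cytosine methyltransferase for the large ribosomal RNA, had 9.002 and 8.46 FPKM with MGH-CP1, against 14.4 and 12.7 FPKM with vehicle (-0.58 ± 0.08). NAT10, the acetyltransferase that modifies cytidine in 18S RNA, fell least of the 3 (-0.36 ± 0.07; limma, adjusted p = 0.00464). It had 19.1 and 21.1 FPKM with MGH-CP1, against 26.1 and 26.0 FPKM with vehicle. Among rRNA-modifying enzymes in the list of other ribosome biogenesis genes, DIMT1, WBSCR22 and FTSJ3 were called lower. TSR3 and RRP8 were not called. EMG1 was not called either, but its entry is typed as a processed transcript and rests on few reads. It had 17 and 37 reads with MGH-CP1, against 47 and 12 with vehicle (95% interval -0.69 to 0.71), so its change is poorly measured.

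In the small-subunit processome, the UtpA and UtpB subcomplexes are the first to bind the nascent precursor, and 8 of their 8 listed genes fell. The median log2 fold change was -0.56 and their levels stood at 53.4% to 77.5% of the vehicle means. WDR43, a UtpA subunit, had 19.5 and 18 FPKM in the MGH-CP1 libraries, against 33.7 and 34.5 FPKM in the vehicle libraries (log2 fold change -0.83 ± 0.06; limma, adjusted p = 0.000102). UTP15, also of UtpA, had 3.75 and 3.55 FPKM with MGH-CP1, against 6.66 and 6.99 FPKM with vehicle (-0.75 ± 0.09; limma, adjusted p = 0.00053). The UtpB subunits UTP18 (-0.67) and WDR3 (-0.65) followed, then WDR36 (-0.48) and HEATR1 (-0.41), a large UtpA scaffold. The smallest falls of the 8 were those of WDR75 (-0.36) and UTP6 (-0.33). Of further UtpA and UtpB subunits in the list of other ribosome biogenesis genes, CIRH1A (-0.70), PWP2 (-0.65) and NOL11 (-0.63) fell. TBL3, a UtpB subunit in that list, did not pass (-0.21; limma, adjusted p = 0.0788). WDR75 did not pass without MGH-CP1 replicate 2 (limma, adjusted p = 0.0985) or with no filter on low values (0.0608), UTP6 without MGH-CP1 replicate 2 (0.0594), and WDR36 with no filter (0.0516).

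The U3 snoRNP and other processome factors were mixed, with 7 of 10 lower. UTP20, a very large scaffold protein, had 3.95 and 4.66 FPKM in the MGH-CP1 libraries, against 8.49 and 9.69 FPKM in the vehicle libraries (log2 fold change -0.93 ± 0.10; limma, adjusted p = 0.000466). RRP9, which binds the U3 RNA, had 11.5 and 11.1 FPKM with MGH-CP1, against 22.4 and 19.7 FPKM with vehicle (-0.84 ± 0.08; limma, adjusted p = 0.000209). The groups were far apart for both genes. IMP4 (-0.76), NOP14 (-0.68), NOC4L (-0.67) and the helicase gene DDX10 (-0.56) also fell. MPHOSPH10, which binds IMP3 and IMP4 in the U3 particle, fell by a narrow margin (-0.30 ± 0.09; limma, adjusted p = 0.0278). It did not pass without MGH-CP1 replicate 1 (0.178), without vehicle replicate 2 (0.0828) or with no filter (0.105).

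The other members of that class did not pass. IMP3 had 10.6 and 7.85 FPKM in the MGH-CP1 libraries, against 12.2 and 10.4 FPKM in the vehicle libraries (log2 fold change -0.27, 95% interval -0.59 to 0.05; limma, adjusted p = 0.148). IMP3 was called lower without MGH-CP1 replicate 1 (adjusted p = 0.0262) without vehicle replicate 2 (0.0468) and with the replicate block (0.0336), within a range of 0.0262 to 0.69 over the alternatives. It also overlaps SNX33 on the opposite strand, at a mean of 11.6 FPKM. UTP3, a processome protein, had 17.7 and 16.9 FPKM with MGH-CP1, against 19.2 and 17.5 FPKM with vehicle (-0.08, interval -0.25 to 0.09; limma, adjusted p = 0.392). RCL1, a factor for early cleavage of the precursor, was the least expressed of the 56 genes, with 39 and 51 reads (1.06 and 1.41 FPKM) with MGH-CP1, against 80 and 62 reads (2.03 and 1.73 FPKM) with vehicle (-0.37, interval -0.69 to -0.05; limma, adjusted p = 0.0625). Without vehicle replicate 2 RCL1 was called lower (adjusted p = 0.0493), as it was without a variance trend (0.0373), within a range of 0.0373 to 0.301.

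Among factors of late 40S maturation and export, 5 of 6 fell. PNO1, an RNA-binding partner of the nuclease NOB1, had 4.40 and 4.54 FPKM in the MGH-CP1 libraries, against 8.40 and 8.73 FPKM in the vehicle libraries (log2 fold change -0.81 ± 0.08; limma, adjusted p = 0.000275). LTV1, which leaves the particle late in its maturation, had 5.70 and 5.97 FPKM with MGH-CP1, against 9.43 and 10.3 FPKM with vehicle (-0.67 ± 0.08; limma, adjusted p = 0.000677). PNO1 overlaps PPP3R1 on the opposite strand (mean 43.9 FPKM), and its own level is uncertain. TSR1 (-0.61), BYSL (-0.56) and RRP12 (-0.52), which accompany the particle to the cytoplasm, fell as well. NOB1, the nuclease that makes the final cut of 18S RNA, had 13.9 and 13.98 FPKM with MGH-CP1, against 16.4 and 13.4 FPKM with vehicle, so that the MGH-CP1 values lay between those of vehicle (-0.09, interval -0.31 to 0.14; limma, adjusted p = 0.501). Without vehicle replicate 1 its log2 fold change was 0.05 (adjusted p = 0.629), and without vehicle replicate 2 it was called lower (-0.22; adjusted p = 0.0362).

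On the 60S side, the PeBoW complex, which is needed to process the RNAs of the large subunit, fell as a whole, 3 of 3. BOP1 had 9.06 and 7.82 FPKM in the MGH-CP1 libraries, against 17.6 and 15.02 FPKM in the vehicle libraries (log2 fold change -0.88 ± 0.10; limma, adjusted p = 0.00054). WDR12 had 9.53 and 7.93 FPKM with MGH-CP1, against 14.6 and 15.3 FPKM with vehicle (-0.72 ± 0.09), and PES1, pescadillo, had 26.5 and 25.5 FPKM with MGH-CP1, against 40.9 and 35.2 FPKM with vehicle (-0.53 ± 0.08). PES1 was the most abundant subunit in every library. The level of BOP1 over that of PES1 was 0.342 and 0.307 with MGH-CP1, against 0.431 and 0.426 with vehicle, without overlap, whereas WDR12 over PES1 overlapped, at 0.359 and 0.311 with MGH-CP1, against 0.356 and 0.434 with vehicle.

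The other 60S assembly factors held the largest changes of the 56 genes, with 14 of 15 lower and a median log2 fold change of -0.69. NOP16 (ENSG00000048162, hg19 chromosome 5, 175810949 to 175815976, minus strand), a nucleolar protein of early 60S particles, had 4.42 and 4.18 FPKM in the MGH-CP1 libraries, against 13.6 and 11.9 FPKM in the vehicle libraries. It fell to 33.8% of its vehicle mean (log2 fold change -1.37 ± 0.09; limma, adjusted p = 5.33e-05), on 96 and 89 reads with MGH-CP1 and 315 and 251 with vehicle. It overlaps HIGD2A on the opposite strand, at a mean of 19.97 FPKM, and whether strand was used in counting is not given in the sources used here. EBNA1BP2 (ENSG00000117395, hg19 chromosome 1, 43629846 to 43736607, minus strand), whose yeast counterpart Ebp2 acts in 60S assembly, had 31.8 and 28.5 FPKM with MGH-CP1, against 71.2 and 64.0 FPKM with vehicle (-1.14 ± 0.08; limma, adjusted p = 6.4e-05). No gene overlapping EBNA1BP2 reached 25% of its mean level. BRIX1 (-1.06), RRS1 (-0.995), MRTO4 (-0.98) and NOC3L (-0.81) came next, all of them factors of early 60S particles.

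The remaining 60S genes fell less. RRP1B (-0.70) and RRP1 (-0.64), paralogs that lie close together on chromosome 21, fell alike, and the level of RRP1 over that of RRP1B was 0.760 and 0.741 with MGH-CP1, against 0.755 and 0.696 with vehicle. NIP7 (-0.69), the helicase gene DDX18 (-0.67), GNL3 (-0.54), which encodes the GTP-binding protein nucleostemin, NOC2L (-0.47), GNL2 (-0.36) and the helicase gene DDX56 (-0.36) were all called lower. PPAN, whose yeast counterparts act in 60S assembly, had 1.56 and 1.59 FPKM with MGH-CP1, against 2.33 and 2.10 FPKM with vehicle, and did not pass (log2 fold change -0.32, interval -0.59 to -0.05; limma, adjusted p = 0.0549). It was called lower without a variance trend (adjusted p = 0.0188), within a range of 0.0188 to 0.188. PPAN overlaps P2RY11 on the same strand, at a mean of 3.93 FPKM.

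The upstream sequences of the 4 called genes with the largest changes for which a promoter was at hand are shown with the motifs found in them. Each is the 250 bases before the RefSeq gene start on GRCh38.p14, written along the gene's strand, with capitals for any match, on either strand, to the E-box, ETS, TEAD or TATA letters given above.
NOP16 (chr5:176388599-176388848, minus strand): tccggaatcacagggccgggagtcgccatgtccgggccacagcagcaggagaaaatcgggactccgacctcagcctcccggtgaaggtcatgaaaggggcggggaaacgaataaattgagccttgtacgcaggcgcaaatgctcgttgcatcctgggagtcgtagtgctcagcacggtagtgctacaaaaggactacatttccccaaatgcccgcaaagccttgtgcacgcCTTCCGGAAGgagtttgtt
EBNA1BP2 (chr1:43172571-43172820, minus strand): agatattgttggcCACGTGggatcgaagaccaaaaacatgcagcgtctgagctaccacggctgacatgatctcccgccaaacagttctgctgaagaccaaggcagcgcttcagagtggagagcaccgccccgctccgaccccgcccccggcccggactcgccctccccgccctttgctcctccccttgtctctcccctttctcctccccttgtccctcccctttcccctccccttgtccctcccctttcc
DKC1 (chrX:154762614-154762863, plus strand): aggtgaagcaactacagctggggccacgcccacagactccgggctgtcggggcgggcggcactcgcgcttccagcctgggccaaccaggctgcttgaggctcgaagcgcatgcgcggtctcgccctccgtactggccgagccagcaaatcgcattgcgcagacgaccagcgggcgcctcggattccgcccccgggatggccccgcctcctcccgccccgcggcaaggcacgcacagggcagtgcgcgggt
BRIX1 (chr5:34915461-34915710, plus strand): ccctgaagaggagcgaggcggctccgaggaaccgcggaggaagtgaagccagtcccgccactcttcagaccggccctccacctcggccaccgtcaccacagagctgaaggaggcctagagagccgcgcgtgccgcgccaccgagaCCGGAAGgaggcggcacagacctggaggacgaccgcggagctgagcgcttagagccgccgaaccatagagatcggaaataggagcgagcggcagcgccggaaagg

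In NOP16 the ETS letters occurred on both strands, overlapping, and began at -19 and -16. EBNA1BP2 had an E-box at -237 and another at 42 from a second listed start. The ETS letters of BRIX1 began at -105, and DKC1 held none of the 4 motifs in this stretch.

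Because strand use in counting is not known, genes that overlap others are uncertain. Of the 56 genes, 13 overlap a gene whose mean was at least 25% of their own, among them NOP16, BRIX1, MRTO4, PNO1 and GNL3. Of the 43 genes without such an overlap, a split chosen after seeing the data, 38 were called lower, and the median log2 fold change was -0.67.

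Other ribosome biogenesis genes fell too, by less at the median. This list of 97 genes was written from general knowledge of ribosome assembly, and 95 of them passed the filter on low values. Of these 76 were lower (80.0%), with a median log2 fold change of -0.39. None was called higher by limma or voom, and 1 had an unadjusted p under 0.05 in that direction. On the log2(FPKM + 1) scale the largest called falls were those of PAK1IP1, EXOSC2 and RPF2, whereas by mean FPKM MDN1 stood lowest among the called genes, at 43.4% of vehicle, and MAK16 (49.04%) and NLE1 (49.2%) stood below RPF2 (50.9%). MDN1, MAK16 and NLE1 were named after their values were seen. PAK1IP1, a 60S factor, had 8.87 and 8.45 FPKM in the MGH-CP1 libraries, against 21.2 and 17.5 FPKM in the vehicle libraries (-1.07 ± 0.10; limma, adjusted p = 0.000185). EXOSC2, a subunit of the RNA exosome that trims ribosomal RNA, had 9.76 and 10.3 FPKM with MGH-CP1, against 23.4 and 20.9 FPKM with vehicle (-1.07 ± 0.08). RPF2, a partner of RRS1 in delivering 5S RNA, had 8.99 and 8.59 FPKM with MGH-CP1, against 18 and 16.5 FPKM with vehicle (-0.90 ± 0.07). By class, 25 of 33 other small-subunit factors, 31 of 37 other large-subunit factors, 8 of 10 snoRNP assembly factors and 12 of 15 exosome and decay genes fell. Without MGH-CP1 replicate 2 the count was 50.

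Ribosomal protein genes and the RNA polymerase I machinery were set beside these genes by lists chosen after their values were known. Of 83 tested cytosolic ribosomal protein genes, paralogs included, 19 were lower (22.9%, near the 25.1% of all genes tested), and the median was -0.12. limma called 0 of them higher, 1 had an unadjusted p under 0.05 in that direction, and voom called 1. They took 3.67% and 3.52% of reads in the MGH-CP1 libraries, against 4.08% and 3.64% in the vehicle libraries. Of 14 tested genes of RNA polymerase I and its initiation factors, 6 were lower (42.9%) and 1 higher, with a median of -0.23. Over all genes tested, 25.1% were called lower and 20% higher. These counts and medians are descriptions, and the difference between the lists was not tested.

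**Figure D5:**
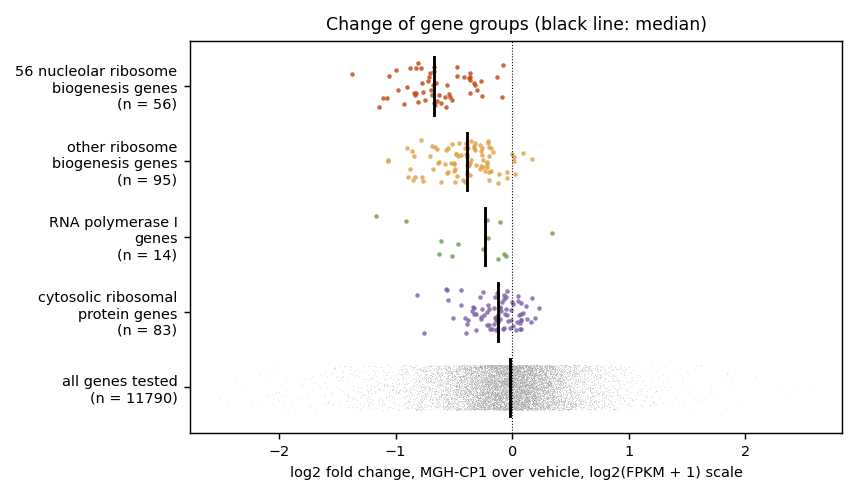
Log2 fold change of MGH-CP1 over vehicle for each tested gene of 5 gene groups, with a black line at each median. The medians are -0.67 for the 56 nucleolar genes, -0.39 for other ribosome biogenesis genes, -0.23 for RNA polymerase I genes, -0.12 for ribosomal protein genes and -0.02 for all genes tested.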

How the data were processed

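Per the labels, mRNA was selected by oligo-dT and reverse transcribed from random hexamers. The submitters' processing notes name CASAVA 1.8, STAR and hg19. The STAR version, counter, annotation and use of strand: not given in the sources used here. The authors deposited FPKM values per gene and library. Times gene length these were whole multiples of 1 step per library (100% within 0.05), taken as reads. The fit used limma 3.58.1 in R 4.3.3 on log2(FPKM + 1) with a variance trend, group as its only term, and a filter at a mean of 1 FPKM. It was also run on simulated data, in which far fewer genes were changed than were called here. That run does not show how the fit performs on these data. The log scale understates changes of low genes. Titles share replicate numbers but no batch is labelled. Members and lists were chosen with earlier results of these data known. Within each role class, values per library are given for the 2 largest called changes (all members in classes of up to 4) and for members not called. Alternatives changed the pseudocount, filter, scaling, trend, test (voom), replicate block and libraries. Promoters are RefSeq sequences on GRCh38.p14, another build than the table's, matched by symbol; bases after the start were found in GENCODE transcripts of the gene, on its strand, for 42 of 48. Tables and plots used pandas 2.3.3, matplotlib 3.10.9 and numpy 2.4.6 under Python 3.11.15.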

Additional observations from a re-analysis of the deposited data

How the results depend on the processing

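Of the 49 ribosome biogenesis genes called lower, 45 were called lower under every one of the 11 alternatives that tested them, and the count was 46 to 52 over these. Leaving out a library gave 47 to 52 lower and a median of -0.68 to -0.60. The median was -0.71 with a pseudocount of 0.1 and -0.70 with voom, and 8 genes were at least 2-fold lower under each, where a pseudocount of 1 shrinks low genes more. With a library left out, the log2 fold change of NOB1 ranged between -0.22 (without vehicle replicate 2) and 0.0501 (without vehicle replicate 1); the cause was not tested. Same-numbered libraries deviated together only weakly by the measure used (Pearson r = 0.05, Spearman rho = 0.155 across genes). Of the 56 genes, replicate 1 lay above replicate 2 for 35 with MGH-CP1 and for 37 with vehicle. With only 2 pairs the numbers are not taken to pair the libraries. With the replicate block 51 of the 56 were lower. Other ribosome biogenesis genes numbered 50 to 76 lower and 0 to 1 higher with a library left out, and 1 higher with a filter of 5 FPKM and with rescaled libraries. Over all genes, 1568 were higher without a filter, where more genes were tested, and 1460 to 2556 with a library left out; the cause of that range was not tested. With a library left out, the lone sample of its group is assumed to vary like the others. Genes near 1 FPKM, such as RCL1 and PPAN, rested on 39 to 104 reads, which limits their precision.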
